A study of Mus musculus with 71 samples.

Results

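The laminins and integrins are 37 genes of the 24222 counted in RNA of mouse embryonic stem (ES) cells, chosen by their gene symbols alone: 11 laminin chains (Lama, Lamb and Lamc), 18 integrin alpha subunits and 8 integrin beta subunits. The libraries form 3 groups of 3: cells labelled EZH2 rescue, which re-express wild-type EZH2 (rescue), cells labelled as an Ezh1/Ezh2 double knockout (dKO), and wild-type cells (WT). All 3 groups are of the C57BL/6 strain and were grown on gelatin in 2i medium, which keeps ES cells naive. Polycomb repressive complex 2 (PRC2), which methylates histone H3 at lysine 27, contains either Ezh1 or Ezh2 as its enzyme and Suz12 as a scaffold. The labels do not say how many clones a group represents or whether separate cultures gave its 3 libraries. The p-values therefore reflect only how far these libraries differ, which may be technical.

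Laminins are secreted trimers of 1 alpha, 1 beta and 1 gamma chain that polymerise into the basement membrane, the sheet of matrix under epithelia and around the early embryo. Integrins are receptors made of 1 alpha and 1 beta subunit that span the plasma membrane and tie matrix proteins to the actin cytoskeleton. The alpha subunit largely sets the ligand: Itga3, Itga6 and Itga7 pair with Itgb1 to bind laminin, Itga1, Itga2, Itga10 and Itga11 bind collagens, and Itga5, Itgav, Itga8 and Itga2b recognise the RGD tripeptide of fibronectin and other ligands. In the mouse, loss of Lamc1 or Itgb1 stops development around implantation, when the first basement membranes form.

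The promoters of 4 integrin genes are shown because they stand for the main patterns described below: Itga11, with the largest gain in dKO, Itga3, a laminin receptor subunit that rose, Itgb8, which had no read in any library, and Itga10, which fell. Each is the RefSeq window of GRCm38.p6 (the assembly mm10 is built from) from 250 bases before to 50 bases after the annotated start, on the strand of the gene, with CpG dinucleotides in capitals.
Itga11, chr9:62677605-62677904, plus strand: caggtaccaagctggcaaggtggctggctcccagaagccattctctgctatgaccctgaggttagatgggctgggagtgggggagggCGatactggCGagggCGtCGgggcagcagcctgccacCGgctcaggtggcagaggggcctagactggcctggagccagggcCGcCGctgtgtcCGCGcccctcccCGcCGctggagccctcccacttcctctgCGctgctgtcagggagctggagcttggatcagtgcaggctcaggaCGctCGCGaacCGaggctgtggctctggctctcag
Itga3, chr11:95076665-95076964, minus strand: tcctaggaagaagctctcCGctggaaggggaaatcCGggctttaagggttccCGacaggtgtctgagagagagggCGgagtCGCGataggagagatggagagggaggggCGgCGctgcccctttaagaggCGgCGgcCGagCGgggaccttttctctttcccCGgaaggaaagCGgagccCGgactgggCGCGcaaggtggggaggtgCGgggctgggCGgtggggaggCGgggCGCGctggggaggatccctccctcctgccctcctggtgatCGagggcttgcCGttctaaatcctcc
Itgb8, chr12:119238227-119238526, minus strand: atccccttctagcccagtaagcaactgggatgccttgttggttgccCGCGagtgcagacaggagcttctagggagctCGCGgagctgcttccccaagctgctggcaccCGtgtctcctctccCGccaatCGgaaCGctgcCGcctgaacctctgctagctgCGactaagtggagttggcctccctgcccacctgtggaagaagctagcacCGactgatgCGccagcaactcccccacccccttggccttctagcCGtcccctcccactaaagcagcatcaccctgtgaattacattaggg
Itga10, chr3:96645334-96645633, plus strand: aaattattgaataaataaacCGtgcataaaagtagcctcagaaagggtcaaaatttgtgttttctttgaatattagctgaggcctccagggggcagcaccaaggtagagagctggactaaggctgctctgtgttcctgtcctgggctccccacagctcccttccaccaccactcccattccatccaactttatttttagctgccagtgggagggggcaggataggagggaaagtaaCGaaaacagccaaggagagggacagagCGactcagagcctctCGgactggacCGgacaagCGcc
The windows hold 16, 24, 13 and 6 CpG in the order Itga11, Itga3, Itgb8 and Itga10, where the median of all 32851 windows in the table was 7 and 94.6% held at least 1. In wild-type ES cells of another strain, 129B6F1, a Suz12 peak covered all 300 bases of the Itga11, Itga3 and Itgb8 windows shown, and none of the Itga10 window. Itga3 has another RefSeq window, chr11:95069149-95069448, not shown, which held 5 CpG and had 0 bases in a peak.

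Libraries held between 12457622 and 36009529 counts, and correlations of log expression between replicates were 0.986 to 0.997. Levels are in CPM, gene counts scaled to library size with TMM factors, which correct for differences in library composition. They depend on transcript length and are compared here between groups for 1 gene, never between genes. Of the 37 genes 29 passed the filter on low counts and were tested. Ezh1 stood at 2.33 to 3.42 CPM in rescue, 1.80 to 2.34 CPM in dKO and 47.9 to 53.4 CPM in WT, so the rescue libraries share the low Ezh1 level of the dKO libraries. Ezh2 stood at 549 to 576 CPM in rescue, 191 to 214 CPM in dKO and 308 to 314 CPM in WT, and these gene counts cannot show which exons are deleted. All 10 ES cell markers examined were detected in every group, with a summed level of 9309 to 9451 CPM in rescue, 6972 to 7052 CPM in dKO and 7875 to 8058 CPM in WT. Without Tfcp2l1, the most abundant, the sum was 7012 to 7098 CPM in rescue, 5157 to 5561 CPM in dKO and 6268 to 6416 CPM in WT. By the test described below, 6 of the 10 were lower and 2 higher in dKO than in WT. In rescue against dKO 7 were higher and 0 lower. A lower level in bulk RNA can mean fewer cells of a kind or less RNA per cell, and these cannot be told apart.

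Comparing dKO with WT asks which of these genes differ in cells labelled as lacking both methyltransferases. In dKO most of the tested laminin and integrin genes differed from WT, and more rose than fell. Of 29 tested genes 17 rose, 6 fell and 6 did not pass, by edgeR's quasi-likelihood test at a two-sided Benjamini-Hochberg adjusted p under 0.05 over all 14145 tested genes. Across all tested genes 64.7% passed, 33.7% as higher and 31.0% as lower. The median log2 fold change was 0.45 for the 29 genes and -0.0026 for all tested genes. By at least 2-fold, 10 of the 29 rose and 3 fell, where 19.1% of all tested genes rose and 4.39% fell by as much. The libraries of dKO and WT did not overlap for 24 of the 29, against 68.0% of all tested genes. Itga11, Itga2b and Itga8 passed the filter through the dKO libraries alone and so had to differ. Without these 3, 14 of 26 rose and 6 fell, of which 7 and 3 by at least 2-fold. Among the 22 genes with a mean of at least 1 CPM in WT, 11 rose and 6 fell, with a median of 0.18. Of these, 4 rose and 3 fell by at least 2-fold. Neither subset was counted over all tested genes, so the shares above are no match for the 26 or the 22.

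**Figure D1:**
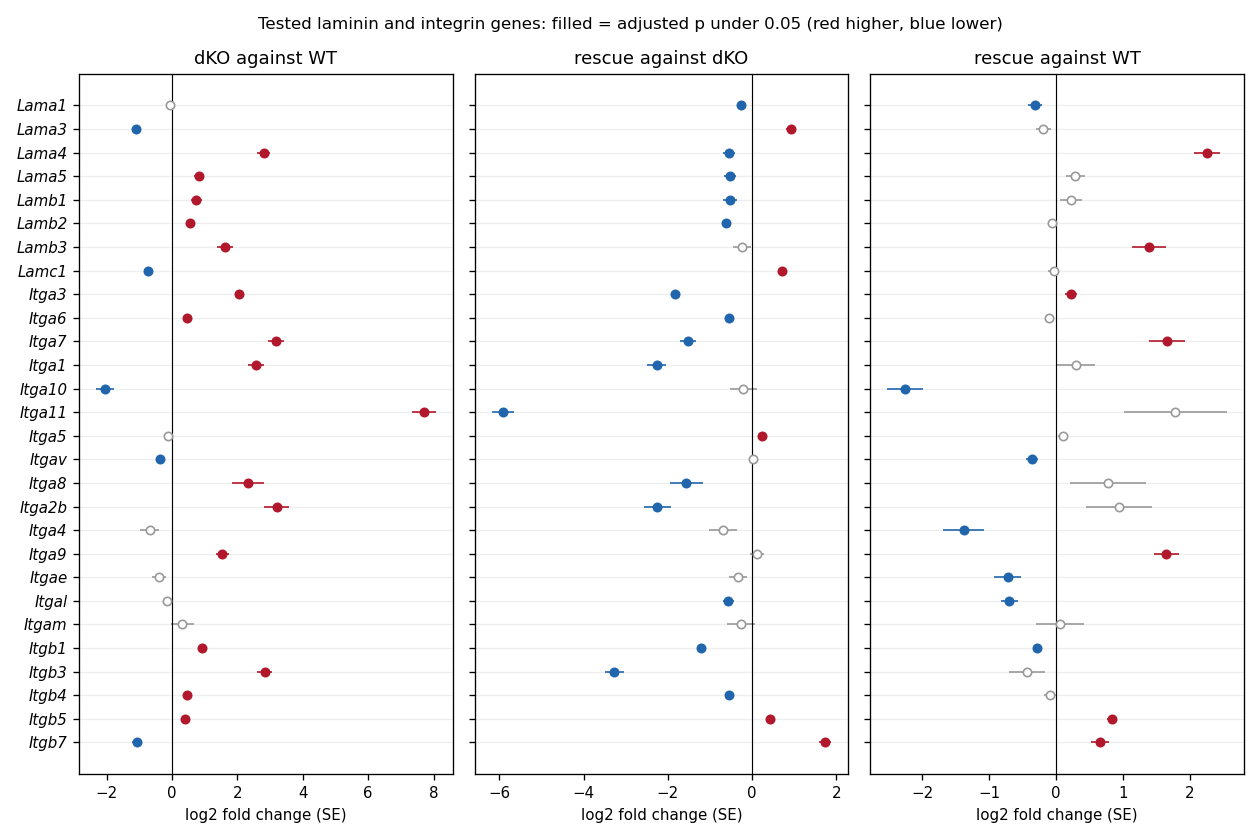
Log2 fold change with its standard error for 28 tested laminin and integrin genes in dKO against WT, rescue against dKO and rescue against WT, with filled points for an adjusted p under 0.05 (red higher, blue lower). In dKO against WT 17 points are red and 5 are blue, and Itga11 lies far to the right of the other genes.

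Among laminin alpha chains, Lama4 and Lama5 rose in dKO, Lama3 fell and Lama1 did not pass. Lama4, a chain of endothelial and mesenchymal basement membranes, was at 7.23, 6.74 and 5.91 CPM in dKO, against 0.826, 0.793 and 1.19 CPM in WT. The 2 groups stood well apart, with a log2 fold change of 2.80 ± 0.189 (SE) and an edgeR Benjamini-Hochberg adjusted p = 1.31e-07. Lama5, the alpha chain of the laminin on which ES cells are often grown, was at 337, 487 and 304 CPM in dKO, against 225, 198 and 218 CPM in WT. Every dKO library was above every WT library, but dKO replicate 2 was far above the other two (log2 fold change 0.82 ± 0.141, edgeR Benjamini-Hochberg adjusted p = 0.000349). Lama3, a chain of the laminin that anchors skin epithelium, was at 26.2, 27.6 and 36.1 CPM in dKO, against 68.7, 67.1 and 60.4 CPM in WT. It was lower in each dKO library, with a log2 fold change of -1.12 ± 0.115 and an edgeR Benjamini-Hochberg adjusted p = 4.53e-06. Lama1, the alpha chain of the first embryonic basement membranes, averaged 61.1 ± 10.3 CPM in dKO and 63.3 ± 3.21 CPM in WT (SD, n = 3 each), with overlapping libraries and a log2 fold change of -0.05 that turned to 0.06 without dKO replicate 3 and to 0.01 with only genes of at least 2 CPM. Lama2, the chain of muscle laminin, had 16 counts in dKO and 7 in WT and was not tested.

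All 3 beta chains rose in dKO, while the gamma chain Lamc1 fell. Lamb1, the usual beta chain of embryonic laminin, was at 243, 271 and 151 CPM in dKO, against 131, 129.6 and 137 CPM in WT. The dKO libraries were all higher but spread widely, with dKO replicate 3 close to WT (log2 fold change 0.74 ± 0.166, edgeR Benjamini-Hochberg adjusted p = 0.00237). Lamb2, a beta chain of kidney and synaptic basement membranes, averaged 107 ± 6.09 CPM in dKO and 73.7 ± 1.56 CPM in WT (SD, n = 3 each) and rose by 0.54 on the log2 scale. Lamb3, the beta partner of Lama3 in skin laminin, was at 2.79, 3.03 and 4.75 CPM in dKO, against 0.826, 1.35 and 1.24 CPM in WT. That is a log2 fold change of 1.62 ± 0.254 with an edgeR Benjamini-Hochberg adjusted p = 0.000136, while Lama3 itself fell. Lamc1, the gamma chain shared by most laminins, was at 772, 849.5 and 660.3 CPM in dKO, against 1290.3, 1217 and 1323 CPM in WT. No dKO library reached the WT range, and the log2 fold change was -0.75 ± 0.0798 with an edgeR Benjamini-Hochberg adjusted p = 6.01e-06. Lamc3, a gamma chain of nervous system laminin, had 22 counts in dKO and 1 in WT (ratio scaled by TMM 19.7, exact 95% interval 3.19 to 814) and was below the filter.

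The balance of chain counts within a library therefore differed between the groups. Transcript length cancels when a ratio of 2 genes is compared between groups, if each gene uses the same transcripts in every group. Gene counts cannot show whether that holds. Lamb1 counts over Lamc1 counts were 0.315, 0.319 and 0.228 in dKO, against 0.101, 0.106 and 0.103 in WT. Lama5 over Lama1 was 5.69, 6.74 and 5.87 in dKO, against 3.38, 3.29 and 3.46 in WT. Lama3 over Lama5 was 0.0778, 0.0568 and 0.119 in dKO, against 0.306, 0.339 and 0.277 in WT. The groups did not overlap in any of the 3 ratios, which restate the changes of single genes above and are not separate evidence. Summed over the 11 laminin genes, the level was 1428 to 1950 CPM in dKO and 1874 to 2013 CPM in WT, ranges that overlap.

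**Figure D2:**
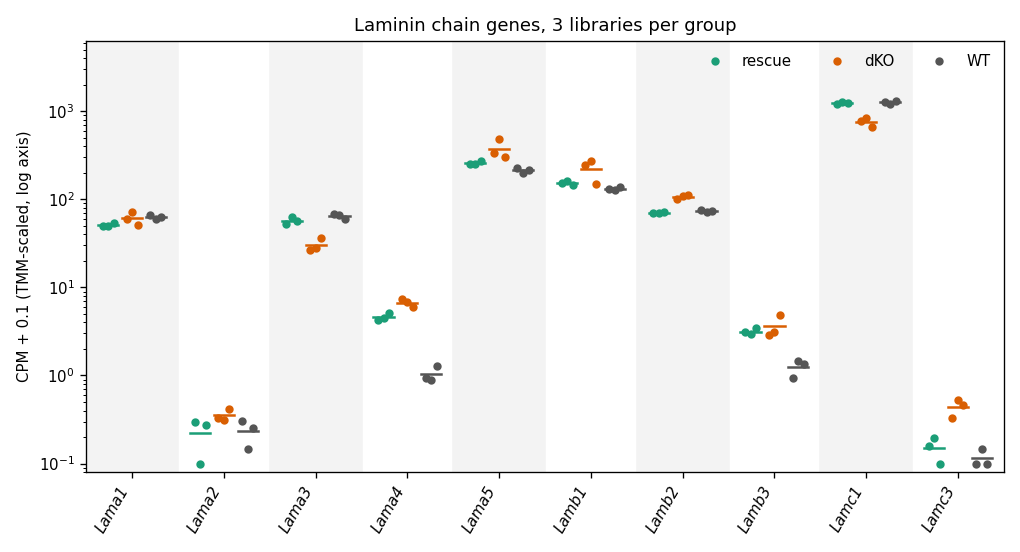
CPM plus 0.1 on a log axis for 10 laminin chain genes, with a point per library and a bar at the mean of the 3 libraries of rescue, dKO and WT. Lama4 and Lamb3 are low in WT and higher in dKO and rescue, while Lama3 and Lamc1 are lower in dKO than in the other groups.

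All 3 laminin-binding alpha subunits rose in dKO. Itga3, a receptor subunit of epithelia, was at 81.6, 85.8 and 76.1 CPM in dKO, against 19.97, 18.04 and 20.9 CPM in WT. Each dKO library was far above WT, a 4.14-fold difference in mean CPM with a log2 fold change of 2.05 ± 0.0852 and an edgeR Benjamini-Hochberg adjusted p = 2.49e-09. Itga6, a laminin receptor subunit typical of ES cells and other stem cells, was at 391, 401 and 388 CPM in dKO, against 288, 285 and 293 CPM in WT. Its replicates were tight, and the rise of 0.45 ± 0.0470 on the log2 scale had an edgeR Benjamini-Hochberg adjusted p = 5.38e-06. Itga7, the laminin receptor subunit of muscle, was at 4.45, 5.38 and 6.27 CPM in dKO, against 0.344, 0.699 and 0.670 CPM in WT. The rise was 3.18 ± 0.244 on the log2 scale (edgeR Benjamini-Hochberg adjusted p = 3.74e-07). Itga3 counts over Itga6 counts were 0.208, 0.214 and 0.196 in dKO, against 0.0692, 0.0633 and 0.0714 in WT, so Itga3 and Itga6 did not rise in proportion.

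The collagen-binding alpha subunits moved in both directions. Itga11, a collagen receptor subunit of fibroblasts and other mesenchymal cells, was at 9.04, 8.96 and 8.10 CPM in dKO, against 0, 0.0933 and 0 CPM in WT. In counts this was 533 in dKO and 2 in WT, a ratio scaled by TMM of 239 with an exact 95% interval of 65.8 to 1978 that covers counting error only. Its fitted log2 fold change of 7.70 rests on the fit's handling of near-zero WT counts, was 10.57 without WT replicate 2, and had an edgeR Benjamini-Hochberg adjusted p = 6.35e-09. Itga1, which binds basement membrane collagen, was at 5.05, 3.97 and 5.63 CPM in dKO, against 0.482, 0.886 and 1.03 CPM in WT. The groups were well apart (log2 fold change 2.56 ± 0.247, edgeR Benjamini-Hochberg adjusted p = 2.54e-06). Itga2, the collagen receptor subunit of platelets and epithelia, had 32 counts in dKO and 1 in WT (ratio scaled by TMM 28.7, exact 95% interval 4.79 to 1168) and stayed below the filter.

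Itga10, a collagen receptor subunit of cartilage, was at 1.81, 1.28 and 0.639 CPM in dKO, against 4.89, 4.48 and 5.16 CPM in WT. It was the only collagen-binding subunit lower in dKO, with a log2 fold change of -2.05 ± 0.277 and an edgeR Benjamini-Hochberg adjusted p = 4.13e-05. Its 104 tested neighbours within 5 Mb on chromosome 3 had a median log2 fold change of -0.03. Fibroblast markers moved in both directions: all 11 summed to 63.5 to 77.5 CPM in dKO and 335 to 355 CPM in WT. Without Vim they summed to 47.3 to 53.3 CPM in dKO and 3.09 to 4.82 CPM in WT, and 4 of 5 tested markers rose while Vim fell. In that sum Thy1 averaged 29.9 CPM in dKO and 1.83 CPM in WT, and Fbn1 16.1 CPM in dKO and 1.13 CPM in WT. Of the 11 markers, Lum and Col3a1 had no count in dKO, and Dcn and Postn averaged 0.0251 and 0.0768 CPM. Their part in the result was not tested.

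Of the RGD-binding alpha subunits, Itga8 and Itga2b rose, Itgav fell and Itga5 did not pass. Itga8, known from kidney development, was at 1.13, 1.11 and 1.08 CPM in dKO, against 0, 0.326 and 0.258 CPM in WT (log2 fold change 2.33 ± 0.486, edgeR Benjamini-Hochberg adjusted p = 0.00117). Itga2b, the fibrinogen receptor subunit of platelets and early blood progenitors, was at 1.28, 2.26 and 1.88 CPM in dKO, against 0.0689, 0.280 and 0.206 CPM in WT. Both genes stayed low in absolute terms even where the libraries did not overlap, and Itga2b had a log2 fold change of 3.20 ± 0.394 with an edgeR Benjamini-Hochberg adjusted p = 1.95e-05. Itgav, the partner of Itgb3, Itgb5, Itgb6 and Itgb8, averaged 99.98 ± 8.55 CPM in dKO and 130.5 ± 16.3 CPM in WT (SD, n = 3 each) and fell by 0.38 on the log2 scale. Itga5, the main fibronectin receptor subunit, averaged 101 ± 8.04 CPM in dKO and 110.2 ± 6.54 CPM in WT (SD, n = 3 each). Its libraries overlapped, with a log2 fold change of -0.13 and an edgeR Benjamini-Hochberg adjusted p = 0.112.

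Itga9 rose and the remaining alpha subunits did not pass. Itga9, a receptor subunit for tenascin and osteopontin, was at 3.39, 3.11 and 2.75 CPM in dKO, against 1.10, 1.21 and 0.825 CPM in WT (log2 fold change 1.54 ± 0.197, edgeR Benjamini-Hochberg adjusted p = 2.67e-05). Itga4, which binds fibronectin and Vcam1, had a log2 fold change of -0.69 and an edgeR Benjamini-Hochberg adjusted p = 0.062. It passed without dKO replicate 2 (0.0124, at -1.07) and with the replicate block (0.0366). Of the subunits known from leukocytes, Itgal (-0.14), Itgae (-0.39) and Itgam (0.32) did not pass, although Itgae did without dKO replicate 3 (adjusted p = 0.0294). Itgad had 2 counts in dKO and 0 in WT, and Itgax had 0 in both. Of 10 blood cell markers 4 were tested, of which 1 rose and 1 fell, with a summed level of 14.5 to 17.1 CPM in dKO and 23.7 to 28.5 CPM in WT. Without Cd68, which fell, the sum ran the other way, at 8.58 to 13.4 CPM in dKO and 5.47 to 6.20 CPM in WT, and the part of these markers in the results was not tested. Ptprc, the defining marker of leukocytes, had 0 counts in dKO, and Hba-a1, Hbb-bt and Gp9, markers of red cells and platelets, had 0 in dKO and in WT.

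Among beta subunits, 4 of the 5 tested rose in dKO and Itgb7 fell. Itgb1, the common partner of the laminin and collagen receptors, was at 386, 374 and 343 CPM in dKO, against 187, 195 and 201 CPM in WT. The level in dKO was 1.89-fold that in WT in mean CPM, well beyond the spread of the replicates, with a log2 fold change of 0.92 ± 0.0580 and an edgeR Benjamini-Hochberg adjusted p = 7.33e-08. Itgb3, which pairs with Itgav and Itga2b, was at 25.5, 29.7 and 16.01 CPM in dKO, against 3.24, 3.45 and 3.20 CPM in WT. Every dKO library was several times above WT, dKO replicate 3 the least, with a log2 fold change of 2.84 ± 0.227 and an edgeR Benjamini-Hochberg adjusted p = 6.26e-07. Itgb4, which pairs with Itga6 in hemidesmosomes, rose by 0.45 and Itgb5, an Itgav partner, by 0.40 on the log2 scale. Itgb7, the lymphocyte subunit that pairs with Itga4 and Itgae, was at 4.22, 3.41 and 5.39 CPM in dKO, against 9.43, 9.37 and 8.77 CPM in WT. It was lower in each dKO library (log2 fold change -1.07 ± 0.152, edgeR Benjamini-Hochberg adjusted p = 6.17e-05).

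The other 3 beta genes were near or at the limit of detection. Itgb2, the leukocyte beta subunit, had 18 counts in dKO and 25 in WT, and Itgb6, an epithelial Itgav partner, had 1 in each. Itgb8, the Itgav partner of glia and neuroepithelium, had 0 counts in all 9 libraries, so that at 3 counts per library its level could still reach 0.0833 CPM (deepest library) to 0.241 CPM (shallowest library). Summed over the 26 integrin genes, the level was 1188 to 1286 CPM in dKO and 852 to 919 CPM in WT, with every dKO library above every WT library.

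**Figure D3:**
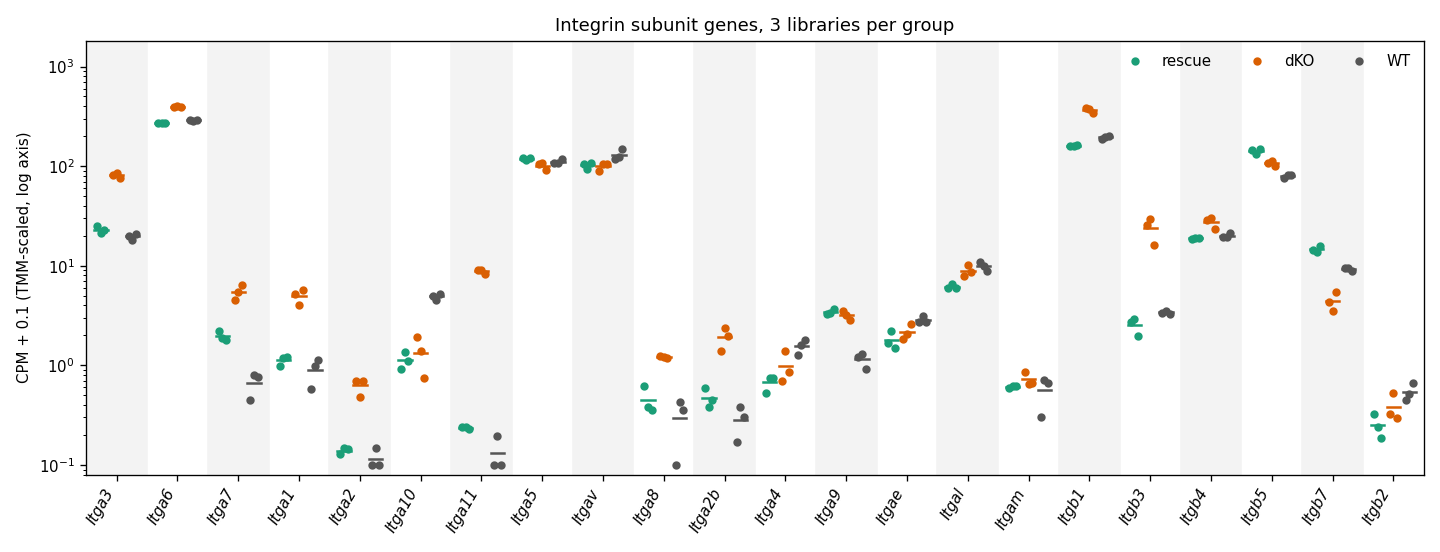
CPM plus 0.1 on a log axis for the 22 integrin genes other than Itgad, Itgax, Itgb6 and Itgb8, with a point per library and a bar at the mean of the 3 libraries of rescue, dKO and WT. Itga11, Itga1, Itga3 and Itgb3 are highest in dKO, while Itga10 is low in rescue and dKO.

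Rescue was compared with dKO to ask what differs once wild-type EZH2 is expressed again. The receptor subunits Itga11, Itgb3, Itga1, Itga3 and Itgb1 were among those lower in rescue, and Itgb7 and the laminin chains Lama3 and Lamc1 among those higher. Of the 29 tested genes 16 fell and 6 rose in rescue against dKO, and 7 did not pass. Of all tested genes 70.3% passed in this comparison, 38.2% as lower and 32.1% as higher. The median log2 fold change was -0.53 for the 29 genes and -0.04 for all tested genes. By at least 2-fold, 8 fell and 1 rose, where 19.9% and 5.03% of all tested genes did, and the libraries did not overlap for 21 of the 29 and for 71.7% of all tested genes. Itga11, Itga2b and Itga8 are among the 16 and the 8, and their fall was favoured by a filter they passed through dKO alone. Without them 13 of 26 fell and 6 rose, with a median of -0.43, and 5 fell by at least 2-fold. Among the 22 genes with a mean of at least 1 CPM in WT, 10 fell and 6 rose, with a median of -0.30, and 3 fell by at least 2-fold. The shares over all tested genes were not taken for such subsets and are no match for the 26 or the 22. The dKO libraries enter this comparison and the one against WT, so the values of each are given side by side and not as separate evidence.

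Of the genes that fell, Itga11 was at 0.143, 0.140 and 0.130 CPM in rescue, against a mean of 8.70 ± 0.518 CPM in dKO (SD, n = 3), with a log2 fold change of -5.92 ± 0.269 and an edgeR Benjamini-Hochberg adjusted p = 4.71e-09. Itgb3 was at 2.63, 2.80 and 1.86 CPM in rescue, against 23.7 ± 6.99 CPM in dKO (SD, n = 3), a log2 fold change of -3.27 ± 0.227 with an edgeR Benjamini-Hochberg adjusted p = 1.64e-07. All rescue libraries of both genes lay far below those of dKO. Itga3 was at 24.7, 21.3 and 22.7 CPM in rescue, against 81.2 ± 4.86 CPM in dKO (SD, n = 3), and fell by 1.82 on the log2 scale. Itga1 fell by 2.26, Itga2b by 2.25, Itga8 by 1.56 and Itga7 by 1.53 on the log2 scale. Itgb1 was at 159, 158 and 161 CPM in rescue, against 368 ± 22.4 CPM in dKO (SD, n = 3), and fell by 1.20 ± 0.0582 (edgeR Benjamini-Hochberg adjusted p = 7.43e-09). All 11 fibroblast markers summed to 140 to 145 CPM in rescue and 63.5 to 77.5 CPM in dKO. Without Vim the sum ran the other way, at 8.003 to 8.78 CPM in rescue and 47.3 to 53.3 CPM in dKO. Of 5 tested fibroblast markers 4 fell and 1 rose. Markers of other cell types changed too. Of 10 tested primitive and parietal endoderm markers 6 fell and 2 rose, with a median log2 fold change of -2.26. Of 10 trophoblast markers 8 fell and 0 rose, with a median of -1.66, and of 4 tested blood cell markers 1 fell and 3 rose. The part of all these markers in the falls above was not tested. Smaller falls on the log2 scale were measured for Lamb2 (0.61), Itgal (0.56), Itga6 (0.55), Lama4 (0.55), Itgb4 (0.54), Lama5 (0.53), Lamb1 (0.52) and Lama1 (0.26). The rescue and dKO libraries overlapped for Lamb1 and Lama1 alone among the 16.

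Among these smaller falls 2 calls and 1 size depended on single libraries. The fall of Lama5 was 0.29 on the log2 scale without dKO replicate 2 and still passed. The Lamb1 call was lost without dKO replicate 1 (edgeR Benjamini-Hochberg adjusted p = 0.069), without dKO replicate 2 (0.0689, with the fall at 0.34) and with no filter on low counts (0.0543). The Lama1 call, at an edgeR Benjamini-Hochberg adjusted p = 0.0393, held without dKO replicate 3. It was lost without dKO replicate 2 (0.235, with a log2 fold change of -0.12) and without any 1 of the other 7 libraries, at 0.0512 to 0.12. It was also lost with DESeq2 (0.0554), RLE size factors (0.0552), only the 2 groups in the fit (0.107) and the replicate block (0.0502).

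The 6 genes higher in rescue than in dKO were led by Itgb7, at 14.4, 13.6 and 15.6 CPM in rescue, against 4.34 ± 0.994 CPM in dKO (SD, n = 3), with a log2 fold change of 1.74 ± 0.146 and an edgeR Benjamini-Hochberg adjusted p = 6.60e-07. Lama3 was at 52.4, 62.4 and 57.0 CPM in rescue, against 29.99 ± 5.34 CPM in dKO (SD, n = 3), and rose by 0.92 on the log2 scale. Lamc1 was at 1208, 1283 and 1250.1 CPM in rescue, against 761 ± 95.2 CPM in dKO (SD, n = 3), and rose by 0.71. No rescue library of these 3 genes overlapped with dKO. Itgb5 rose by 0.43 and Itga5 by 0.24. Lamb1 over Lamc1 counts were 0.127, 0.127 and 0.118 in rescue, against 0.315, 0.319 and 0.228 in dKO. The 7 genes that did not pass were Itga10 (-0.21), Itga4 (-0.70), Itga9 (0.11), Itgae (-0.33), Itgam (-0.26), Itgav (0.02) and Lamb3 (-0.23). Of these, the sign turned for Itga10 without dKO replicate 1, for Lamb3 without dKO replicate 3 and for Itgav in 3 settings. Itga4 passed without dKO replicate 1 (edgeR Benjamini-Hochberg adjusted p = 0.0445) or 3 (0.0404). The 104 tested neighbours of Itga10 within 5 Mb had a median log2 fold change of -0.47 in this comparison, and the whole of chromosome 3 had -0.43.

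Rescue was also compared with WT, which asks where the 2 groups with high Ezh2 still differ. Of the 29 tested genes 8 rose and 7 fell in rescue against WT, and 14 did not pass, where 54.1% of all tested genes passed, 26.8% as higher and 27.3% as lower. Without dKO replicate 3, 11 fell in place of 7. That library is not one of the 2 groups compared, but it enters the shared estimate of spread, the filter and the adjustment. Of the 11, 10 were among the 29, and the other was Itgb2, which was below the filter with all 9 libraries (log2 fold change -1.44, edgeR Benjamini-Hochberg adjusted p = 0.0161, with a range of 0.0161 to 0.0703 over the fits that tested it). The median log2 fold change was 0.11 for the 29 genes and 0.0016 for all tested genes. By at least 2-fold, 4 rose and 2 fell (6.43% and 6.50% of all tested genes), and the libraries did not overlap for 23 of the 29 and for 65.3% of all tested genes.

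Lama4 was at 4.17, 4.44 and 4.97 CPM in rescue, against 0.935 ± 0.218 CPM in WT (SD, n = 3), a log2 fold change of 2.26 ± 0.193 with an edgeR Benjamini-Hochberg adjusted p = 2.56e-06. Itga7 was at 2.12, 1.77 and 1.69 CPM in rescue, against 0.571 ± 0.197 CPM in WT (SD, n = 3), and rose by 1.66. Rescue stood between dKO and WT for both genes, without overlap. Itga9 was at 3.17, 3.22 and 3.54 CPM in rescue, against 1.05 ± 0.199 CPM in WT (SD, n = 3), and rose by 1.65. The 82 tested neighbours of Itga9 within 5 Mb on chromosome 9 had a median log2 fold change of 0.56 in the same comparison. Lamb3 was at 3.00, 2.85 and 3.33 CPM in rescue, against 1.14 ± 0.277 CPM in WT (SD, n = 3), and rose by 1.39. For Itga9 and Lamb3 the rescue libraries overlapped with those of dKO and not with those of WT.

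Itgb5 was at 146, 134 and 149 CPM in rescue, against 80.1 ± 3.01 CPM in WT (SD, n = 3), and rose by 0.84 ± 0.0664 (edgeR Benjamini-Hochberg adjusted p = 1.52e-06). Itgb7 rose by 0.66 on the log2 scale, and the rescue libraries of Itgb5 and Itgb7 lay above every dKO and WT library. Itga3 rose by 0.23 at an edgeR Benjamini-Hochberg adjusted p = 0.0415, a call lost without WT replicate 1 (0.0782) or 2 (0.177), without rescue replicate 1 (0.172) or 3 (0.0789), with TMM factors that leave out chromosomes 3 and 14 (0.0704) and with the replicate block (0.0577).

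Of the 7 genes lower in rescue than in WT, Itga10 was at 0.829, 1.26 and 0.994 CPM in rescue, against 4.84 ± 0.343 CPM in WT (SD, n = 3), a log2 fold change of -2.26 ± 0.270 with an edgeR Benjamini-Hochberg adjusted p = 3.28e-05. Its 104 tested neighbours on chromosome 3 had a median log2 fold change of -0.40 in this comparison, and the whole chromosome -0.40. Every rescue and every dKO library of Itga10 lay below every WT library. Itga4 fell by 1.38, Itgae by 0.73, Itgal by 0.70, Itgav by 0.36, Lama1 by 0.31 and Itgb1 by 0.29 on the log2 scale. The Itgae call was lost without WT replicate 2 (edgeR Benjamini-Hochberg adjusted p = 0.0515). The Lama1 call was lost without WT replicate 1 (0.0837) or 3 (0.0602) and without rescue replicate 1 (0.0801) or 2 (0.0624). Itga11 had 11 counts in rescue and 2 in WT (ratio scaled by TMM 3.83, exact 95% interval 0.836 to 35.5) and did not pass (edgeR Benjamini-Hochberg adjusted p = 0.077), but did without WT replicate 2 (0.0157).

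Lama5 and Lamb1 did not pass in rescue against WT, at log2 fold changes of 0.29 and 0.22, although their libraries did not overlap. Fits without the dKO libraries called both, at an edgeR Benjamini-Hochberg adjusted p = 0.000449 for Lama5 and 0.00136 for Lamb1. Lama5 also passed without dKO replicate 2 alone (0.00443) and Lamb1 without dKO replicate 3 alone (0.00185). The wide spread of both genes among the dKO libraries enters the shared estimate of spread in the fit of all 9 libraries. The fits without all dKO libraries and without dKO replicate 3 also called Lama3 (-0.19), Itgb3 (-0.43) and Itga6 (-0.10).

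Suz12 peaks of wild-type 129B6F1 cells were used to ask which of these genes carry PRC2 in wild-type ES cells. A peak overlapped the gene or 1 kb on either side for 17 of 37 genes (45.9%), against 24.4% of all 24088 placed genes. Only peaks of at least 1 kb in width left 8 genes (21.6%), against 14.1% of placed genes. With peaks of any width, 51.7% of the 29 tested genes had one, against 31.5% of all 14101 tested placed genes. A longer gene can meet a peak more easily, and no share was matched for gene length. For 14 of the 17 the peak lay within 1 kb of an end of the gene, and for Itga2b, Itgb7 and Lama3 it lay further inside. The peaks at these genes were 309 to 1392 bp wide, where the median of all 7480 peaks was 1032 bp. A start site was given for 23 of the genes, and a peak lay within 1 kb of it for 7 of these (30.4%, against 20.5% of all placed genes with a start site): Itga11, Itga3, Itga8, Itgb1, Itgb5, Itgb8 and Lamb1. The peaks at Itga11 (chr9:62677503-62678372), Itga3 (chr11:95075998-95077326) and Itgb8 (chr12:119237614-119238810) all cover the start of transcription. Itga9, on the plus strand, is not among the 7, since its only RefSeq start site lay 104086 bp from its peak. That peak (chr9:118606425-118607606) covers the start of the gene span, at 118606709.

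In dKO against WT 11 of the 15 tested genes that carry a peak rose, 3 fell and 1 did not pass, and of the 14 without a peak 6 rose, 3 fell and 5 did not pass. Among all tested genes with a peak 56.7% rose and 16.9% fell, and among those without 23.1% rose and 37.5% fell. The median log2 fold change was 0.74 for the 15 and 0.09 for the 14, against 0.52 and -0.11 over all tested genes. Itga11, Itga2b and Itga8 are among the 11 and had to differ, having passed the filter through dKO alone. Without them 8 of 12 genes with a peak rose and 3 fell, with a median of 0.45. The shares over all tested genes keep genes of that kind and are no match for the 12. No test was made of these shares, since genes are not replicates and the peaks come from another strain. The genes with a peak that fell were Lama3, Lamc1 and Itgb7, and Lama1 did not pass. Lama4, Itgb3 and Itga1, which rose by 2.80, 2.84 and 2.56 on the log2 scale, had no peak. Itgb8 had a peak 1197 bp wide over its start and no count in dKO.

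The promoter windows inside a peak were richer in CpG than those outside. A RefSeq window was found for 23 of the 37 genes, with 26 windows in all, and 6 windows lay in a peak by at least 1 base. Those 6 held 13 to 27 CpG with a median of 21.5, and the other 20 held 1 to 24 with a median of 6. The 20 include the only window of Itga9, with 10 CpG, although a peak covers the start of that gene's span. CpG is a palindrome, so 1 strand was counted. Itgb1 had 27 CpG, the most of the 26. Lama5 and Itgav, with 24 each, had as many as the Itga3 window shown above and no peak.

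**Figure D4:**
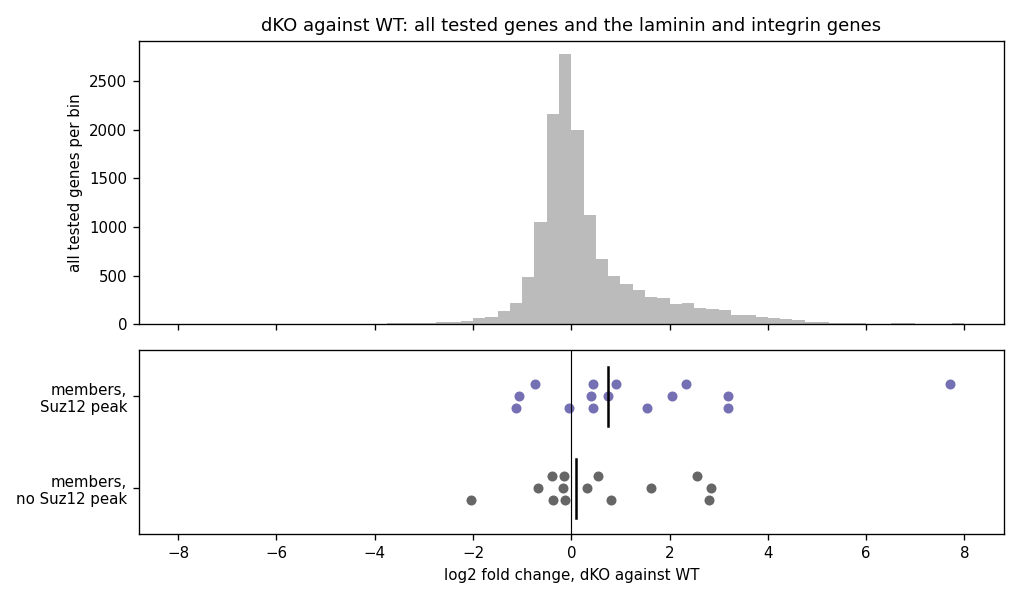
Upper panel: number of all 14145 tested genes per bin of log2 fold change in dKO against WT, with values past 8 placed in the outermost bin. Lower panel: the tested laminin and integrin genes, 15 with a Suz12 peak and 14 without, where points are genes, bars are medians (0.74 and 0.09) and the vertical offset of points has no meaning.

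Other genes of cell-matrix adhesion moved in both directions in dKO against WT, where 33.7% of all tested genes rose and 31.0% fell. Of 16 tested basement membrane partners of laminin 7 rose, 6 fell and 3 did not pass (median log2 fold change -0.01). The network-forming collagens Col4a1 and Col4a2 were at 120.3 ± 13.9 and 79.2 ± 13.2 CPM in dKO, against 9.00 ± 0.544 and 6.41 ± 1.66 CPM in WT (SD, n = 3 each). Frem2, an extracellular matrix protein of the epidermal basement membrane, was at 10.2 ± 1.64 CPM in dKO and 72.5 ± 6.55 CPM in WT (SD, n = 3 each). The linker Nid1, which binds Lamc1, did not pass, at -0.03. Primitive and parietal endoderm markers, from cells known for secreting basement membrane, moved as well: all 14 summed to 542 to 809 CPM in dKO and 960 to 1026 CPM in WT, but without Sparc to 68.6 to 88.2 CPM in dKO and 14.9 to 18.2 CPM in WT, with Gata6 at 11.9 ± 2.89 CPM in dKO and 0.584 ± 0.248 CPM in WT (SD, n = 3 each). Of these markers 10 were tested, of which 8 rose and 2, Sparc and Snai1, fell, and Ttr averaged 0.0251 CPM in dKO. Of 10 trophoblast markers 7 rose and 1 fell, with a summed level of 294 to 331 CPM in dKO and 214 to 228 CPM in WT, and without Tfap2c, which did not pass, of 126 to 191 CPM in dKO and 53.2 to 56.5 CPM in WT. The part of endoderm and trophoblast markers in these results was not tested.

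Of 14 tested laminin receptors other than integrins, with the genes that glycosylate dystroglycan, 6 rose, 5 fell and 3 did not pass (median 0.02). The proteoglycan Sdc3 rose by 2.44 and the sarcoglycan Sgcb by 2.66 on the log2 scale. Sdc2 fell by 1.10, and dystroglycan itself, Dag1, did not pass at 0.06. Of 22 tested integrin ligands other than laminins 13 rose, 6 fell and 3 did not pass (median 0.96). Fibrillin Fbn1 rose by 3.80, Tgfb1, whose latent form binds Itgav integrins, by 2.60 and the cartilage collagen Col2a1 by 2.59. Among the 6 that fell, fibronectin, Fn1, was at 2029 ± 311 CPM in dKO and 3453 ± 166 CPM in WT (SD, n = 3 each). Osteopontin, Spp1, fell too, at 700 ± 77.6 CPM in dKO and 1863 ± 91.9 CPM in WT (SD, n = 3 each). The leukocyte ligand Icam1 did not pass at -0.03. Of 41 tested activators, adaptors and inhibitors of integrins 18 rose, 11 fell and 12 did not pass (median 0.17). The adaptor Tns1 rose by 2.61 and Parva, a partner of integrin-linked kinase, by 1.35, while vinculin, Vcl, did not pass at 0.23. These lists share members with the cell marker lists, such as Fbn1, Sparc and Dab2.

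**Figure D5:**
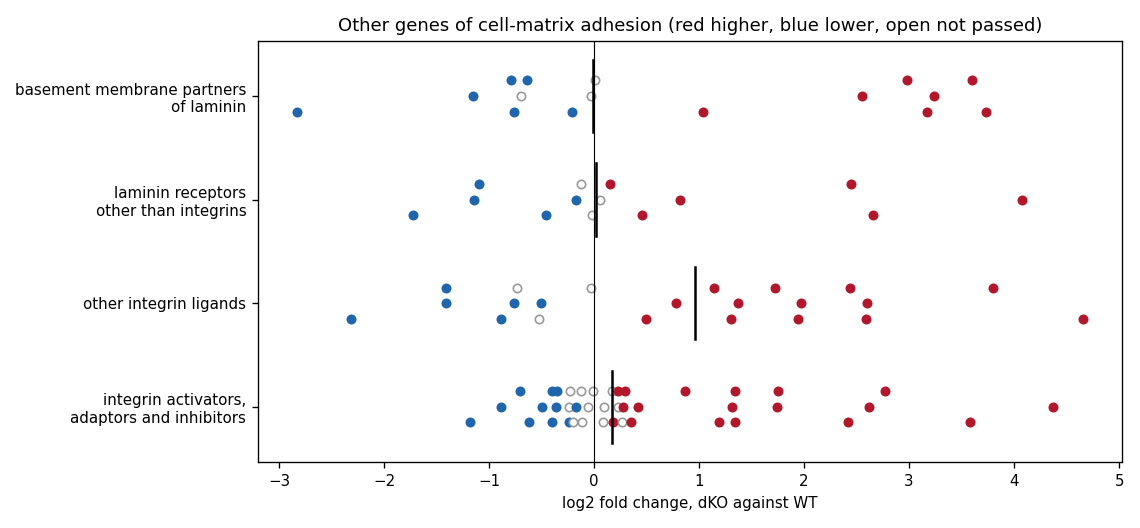
Log2 fold change in dKO against WT for the tested genes of 4 lists of cell-matrix adhesion genes, 1 point per gene, red for higher, blue for lower and open for not passed, with a bar at each list's median. The medians are -0.01 for basement membrane partners, 0.02 for other laminin receptors, 0.96 for other integrin ligands and 0.17 for activators, adaptors and inhibitors.

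In rescue against dKO, 6 basement membrane partners rose and 7 fell, 2 of the other laminin receptors rose and 7 fell, 6 of the other ligands rose and 10 fell, and 11 of the activators and adaptors rose and 18 fell, where 32.1% of all tested genes rose and 38.2% fell. These counts are of 16, 14, 22 and 41 tested genes. Col4a1 was at 26.5 ± 2.49 CPM in rescue, against 120.3 ± 13.9 CPM in dKO (SD, n = 3 each), and Tns1 at 25.6 ± 1.83 CPM in rescue, against 120.5 ± 13.3 CPM in dKO (SD, n = 3 each). In rescue against WT, 5 basement membrane partners rose and 4 fell, 3 of the other laminin receptors rose and 5 fell, 8 of the other ligands rose and 3 fell, and 16 of the activators and adaptors rose and 9 fell, where 26.8% of all tested genes rose and 27.3% fell. Frem2 fell by 2.45 on the log2 scale in rescue against WT, and Fbn1 rose by 2.12.

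The libraries were made with an unstranded kit, and the counting mode is not given. The span of 9 of the 37 genes overlaps another counted gene. Among them are Itga1 with Pelo, Itga7 with Mettl7b, Itga4 with Cerkl and Itgb4 with Galk1. Reads from the shared parts cannot be told apart by strand, and how they were counted is not known.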

How the data were processed

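RNA of 9 libraries and 1 list of Suz12 peaks were used, and 61 further chromatin samples were not analysed here, 2 of them with labels that name different antibodies. The count values are whole-number reads per gene symbol, deposited by the authors without normalization. Trimmomatic, STAR 2.4.0, HTSeq and mm10 are named per the submitters' processing notes. Libraries were made with an unstranded kit, TruSeq RNA v2, per the labels' protocols. For the counting mode, annotation, peak caller and pooling of peaks, the entry is: not given in the sources used here. The other deposited values are peak coordinates only, without a score, given here 1-based.

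Counts were fitted with edgeR 4.0.16 in R 4.3.3 (TMM, filterByExpr by group, robust quasi-likelihood, all 9 libraries, 6 residual degrees of freedom) and tested on simulated data. Tests were two-sided, with Benjamini-Hochberg adjustment over 14145 genes at 0.05. SE is the absolute log2 fold change over the root of F. Alternatives used DESeq2 1.42.0, RLE factors, other filters, TMM without chromosomes 3 and 14, 2 groups only, a replicate block, and each library left out.

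Genes were placed on GRCm38.p6 by symbol (22858) or synonym (1230), and 134 were not matched. Start sites came from RefSeq windows, and no transcript lengths were used. Counting error alone enters the intervals and detection limits. Replicates differed by more than sampling noise (chi-square per degree of freedom 2.15 to 22.6), so none was merged for the tests. The exact intervals use counts summed over the 3 libraries of a group and leave this extra spread out, so they are too narrow.

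The genes were chosen by symbol, and they and the lists were chosen with earlier results of these data known. Values in every library are given for genes called in dKO against WT at 2-fold or more with a mean of at least 1 CPM in a group, and for the gene with the highest WT mean of each chain or subunit class. From each list up to 3 genes with the smallest adjusted p and 1 that did not pass are named, and further list genes, markers among them, were chosen after their values were seen. Results for some genes that enter the counts are not reported here.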

Additional observations from a re-analysis of the deposited data

How the results depend on the processing

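The counts of laminin and integrin genes that rose or fell stayed within 1.5 times of those reported under every alternative, with 1 exception. Leaving out 1 library at a time gave 17 to 18 higher and 5 to 7 lower in dKO against WT, 6 higher and 15 to 17 lower in rescue against dKO, and 7 to 9 higher and 6 to 11 lower in rescue against WT, the 11 without dKO replicate 3 and including Itgb2, which is not among the 29. The other settings gave 15 to 19 and 5 to 6, 6 and 14 to 17, and 7 to 10 and 6 to 10 in the same order. The 10 and 10 came from the fit of rescue and WT alone, which leaves out all dKO libraries. The Suz12 count of 17 genes was 7 at start sites, given for 23 genes only, and 8 with peaks of at least 1 kb. With only genes of at least 2 CPM, Lama1 turned to 0.015 in dKO against WT and Itgav to -0.029 in rescue against dKO. Signs of genes that did not pass also turned when 1 library was left out: Lama1 ranged over -0.19 to 0.062 in dKO against WT, Itga10 over -0.56 to 0.079, Itgav over -0.042 to 0.080 and Lamb3 over -0.35 to 0.063 in rescue against dKO, and Itgam over -0.22 to 0.30 in rescue against WT. The cause was not tested. Replicate numbers did not pair libraries (correlations of deviations from group means -0.112 to 0.201, with 2 of 9 libraries matching their own number best in both other groups). The fit with the replicate block gave 17 higher and 6 lower in dKO against WT, 6 and 15 in rescue against dKO, and 7 and 7 in rescue against WT. Genes under about 0.45 CPM are limited by depth.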

Other observations

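Within libraries, counts of integrin partners stood in different ratios in the 3 groups. Transcript length cancels between groups only if each gene uses the same transcripts in all of them, which was not examined. Itgb3 over its partner Itgav was 0.0241 ± 0.00621 in rescue, 0.240 ± 0.0767 in dKO and 0.0255 ± 0.00358 in WT (SD, n = 3 each). The fibronectin receptor pair ran the other way: Itga5 over Itgb1 was 0.744 ± 0.0119 in rescue, 0.273 ± 0.00998 in dKO and 0.567 ± 0.0198 in WT (SD, n = 3 each). Itga6 over Itgb1 was 1.69 ± 0.00602 in rescue, 1.07 ± 0.0585 in dKO and 1.49 ± 0.0445 in WT (SD, n = 3 each). No test was made of these ratios.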
